A study of Mus musculus with 4 samples.

Results

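The lysosomal set comprised 40 of the 21878 genes in the count table, which encode the digestive enzymes, enzyme cofactors and membrane proteins of the lysosome, together with Tfeb, a transcription factor that regulates them. These 40 genes were taken by symbol from a fixed list, and all 40 were found and passed the filter on low counts. RNA was sequenced from bone marrow-derived macrophages (BMDMs) of C57BL/6 mice that the labels give as 8 weeks old. Bone marrow cells were grown into macrophages with M-CSF and cocultured with MC38, a mouse colorectal cancer cell line, for 48 h according to the labels, although a figure legend of the study gives a shorter time. Macrophages in the lower well and tumor cells in the insert were separated by a porous membrane. The comparison was between groups of 2 libraries each, labelled anti-Act1 (mice with a macrophage-specific knockdown of Act1, an adaptor protein encoded by Traf3ip2) and WT (wild type mice). All 4 libraries came from cocultured cells, so macrophages grown alone were not part of the comparison. How the knockdown is driven in macrophages was not given in the sources used here. The study describes its replicates as biological, but which mouse each library came from was not given in the sources used here, so the p-values measure the spread between these libraries only.

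The lysosome is an acidic compartment in which proteins, glycans and lipids delivered by endocytosis, phagocytosis and autophagy are broken down. In macrophages this compartment is large, since these cells digest bacteria, dead cells and antigens. Its soluble enzymes are tagged with mannose 6-phosphate in the Golgi and carried to the lysosome by sorting receptors, while a proton pump, the V-ATPase, keeps the interior acidic. The transcription factor Tfeb moves to the nucleus when the kinase complex mTORC1 is inactive and binds a short palindromic element, called CLEAR, near the start sites of many lysosomal genes.

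The libraries held 55435063 to 75062945 counts. The study reports a marked reduction of Act1 expression in BMDMs of anti-Act1 mice, shown in a supplementary figure. Its legend does not state whether RNA or protein was measured, and the libraries give RNA only. In the libraries used here, Traf3ip2, the targeted gene, did not have a lower level in anti-Act1. It had 6.98 and 7.54 CPM (counts scaled to library size with TMM factors) in WT and 9.63 and 7.84 CPM in anti-Act1 (log2 fold change 0.27, SE 0.12, edgeR BH-adjusted p = 0.117, where BH stands for Benjamini-Hochberg). The groups are therefore named by their labels throughout. The summed level of 4 Y-linked genes (Ddx3y, Eif2s3y, Uty and Kdm5d) was 228 and 246 CPM in WT and 0.016 and 0 CPM in anti-Act1, so the sex of the mice and the genotype label cannot be told apart. Macrophage markers summed to between 23743 and 25469 CPM in the 4 libraries, with Mertk (log2 fold change -0.40) and Itgam (-0.31) lower and Cd14 (0.16) higher among those called. The part of these markers in the differences was not tested. Of 7 markers of epithelial tumor cells, Krt8, Krt18, Cldn3 and Cldn4 had 0 counts in every library, and the list summed to 0.0916 to 0.464 CPM. Fibroblast markers summed to at most 0.476 CPM and neutrophil markers to between 6.40 and 7.34 CPM. Of 5 neutrophil markers tested, S100a8 was called higher (0.66) and S100a9 (-1.42) and Ngp (-2.21) lower, each at no more than 6.09 CPM in any library. T cell markers summed to 25.2 to 31.0 CPM, nearly all of it Cd4 (log2 fold change 0.21), B cell markers to 2.91 to 3.99 CPM and dendritic cell markers to 0.619 to 1.08 CPM.

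The CLEAR element was looked for in the promoters first, since its letters show which genes carry a possible site for Tfeb. RefSeq promoter windows on GRCm38.p6, from 250 bases before to 50 bases after an annotated start, were matched for 35 of the 40 genes (40 windows, since some genes have more than 1 start). Aga, Asah1, Ctsb, Ctsh and Galns had no entry. The letters TCACGTGA, a full palindromic element, were found on either strand in 4 of the 40 windows (10.0%), against 0.974% of all 32851 windows and 1.77% of the 12283 windows of genes tested. The core CACGTG, which every TCACGTGA contains, was found in 13 windows (32.5%, against 7.15% of all windows and 9.79% of windows of genes tested). TCACGTG, which lies between the 2 in length and overlaps both, was found in 11 windows (27.5%, against 3.77% and 5.82%). The variant TCATGTGA was found in 3 windows (7.5%, against 0.986% and 0.798%), those of Gla, Grn and Tpp1. Since CLEAR is described from lysosomal genes, the higher shares in their promoters are no independent result. These are counts of letters, and binding of Tfeb was not measured in these libraries.

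The 4 promoters with a full element are shown because they include a gene that was higher in anti-Act1 and 3 genes that were not called either way. Capitals mark TCACGTGA, TCACGTG or TCATGTGA on either strand, and each sequence reads 5′ to 3′ on the strand of its gene. The windows are chrX:134600956-134601255 on the minus strand for Gla, chr2:164833523-164833822 on the plus strand for Ctsa, chr8:3500269-3500568 on the plus strand for Mcoln1 and chr7:142387778-142388077 on the minus strand for Ctsd.
Gla: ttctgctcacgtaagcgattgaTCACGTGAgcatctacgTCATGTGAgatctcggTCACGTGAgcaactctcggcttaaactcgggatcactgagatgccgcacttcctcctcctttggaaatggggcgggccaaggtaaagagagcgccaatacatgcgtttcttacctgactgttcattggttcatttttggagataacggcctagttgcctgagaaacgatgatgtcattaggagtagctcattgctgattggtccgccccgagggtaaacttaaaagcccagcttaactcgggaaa
Ctsa: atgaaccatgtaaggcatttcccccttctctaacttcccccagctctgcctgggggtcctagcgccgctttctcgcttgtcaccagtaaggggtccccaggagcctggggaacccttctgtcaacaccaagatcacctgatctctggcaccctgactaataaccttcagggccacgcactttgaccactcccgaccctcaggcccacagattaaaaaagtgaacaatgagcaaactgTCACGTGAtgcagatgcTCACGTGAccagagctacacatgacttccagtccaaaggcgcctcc
Mcoln1: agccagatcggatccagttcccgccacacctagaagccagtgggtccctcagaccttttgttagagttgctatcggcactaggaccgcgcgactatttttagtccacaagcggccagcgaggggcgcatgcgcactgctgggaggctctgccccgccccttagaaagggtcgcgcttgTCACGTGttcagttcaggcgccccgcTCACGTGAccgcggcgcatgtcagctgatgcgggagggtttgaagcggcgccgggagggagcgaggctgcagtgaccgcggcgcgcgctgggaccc
Ctsd: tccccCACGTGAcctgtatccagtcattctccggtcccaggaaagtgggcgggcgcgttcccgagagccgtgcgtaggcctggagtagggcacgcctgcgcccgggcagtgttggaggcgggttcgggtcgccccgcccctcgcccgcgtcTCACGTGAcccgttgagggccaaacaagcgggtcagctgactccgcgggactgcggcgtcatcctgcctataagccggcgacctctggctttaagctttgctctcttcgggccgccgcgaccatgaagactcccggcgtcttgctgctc
The elements of Gla, the gene of α-galactosidase A, lay at -228 and -195 from the annotated start, with a TCATGTGA between them at -211. Those of Ctsa lay at -13 and 5, in a window of 1 of the annotated starts of this gene, and the single elements of Ctsd and Mcoln1 lay at -99 and -46. Lamp1 had no full element but held 4 cores, at -61, -45, -28 and -15.

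**Figure D1:**
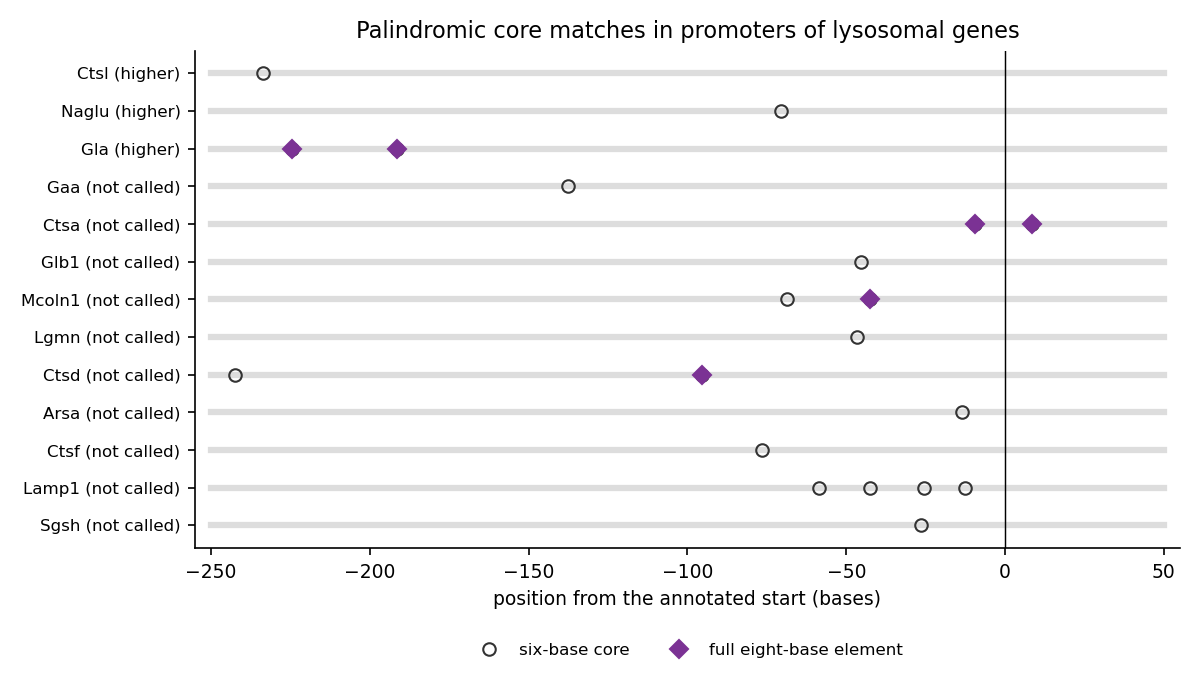
Positions of CACGTG cores (open circles) and full TCACGTGA elements (filled diamonds, which cover their own core) in bases from the annotated start, for the 13 lysosomal genes with a core, ordered by log2 fold change with the call in brackets. Gla and Ctsa each hold 2 full elements, and Lamp1 holds 4 cores within 61 bases of its start.

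Some lysosomal genes were among the most abundant transcripts of these macrophages, while others ranked as low as 6136 of all genes by mean FPKM (Ctsf). Together the 40 genes took between 6.24% and 6.45% of all counts in each library, and the range in WT (6.30% and 6.43%) lay inside the range in anti-Act1 (6.24% and 6.45%). Per transcript length, as deposited FPKM (fragment counts scaled to gene length and library total), the highest was Ctsd, encoding the aspartic protease cathepsin D, with a mean of 6809 FPKM, rank 5 of all genes. Psap, the precursor of the saposins that help enzymes act on sphingolipids, followed with 4111 FPKM (rank 8). The cysteine proteases Ctsb with 3769 FPKM (rank 10) and Ctsl with 3050 FPKM (rank 13) came next. These 4 genes alone held 68.3% to 69.1% of the CPM summed over the 40 genes.

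Below them, Lamp1 (1125 to 1227 FPKM), Cd68 (1038 to 1138 FPKM) and Lgmn (973 to 1033 FPKM) formed a group whose neighbors in this order did not all separate between libraries. Lamp1 is a heavily glycosylated protein of the lysosomal membrane, Cd68 is its macrophage relative and Lgmn cuts proteins after asparagine. At the other end stood Tfeb (15.3 FPKM), Ids (14.3 FPKM), Arsb (10.1 FPKM) and Ctsf (8.85 FPKM). The highest and the lowest of the 40 differed 769-fold in mean FPKM. All 5 sulfatases lay in the lower part of the order, from 10.1 FPKM for Arsb to 30.6 FPKM for Galns.

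**Figure D2:**
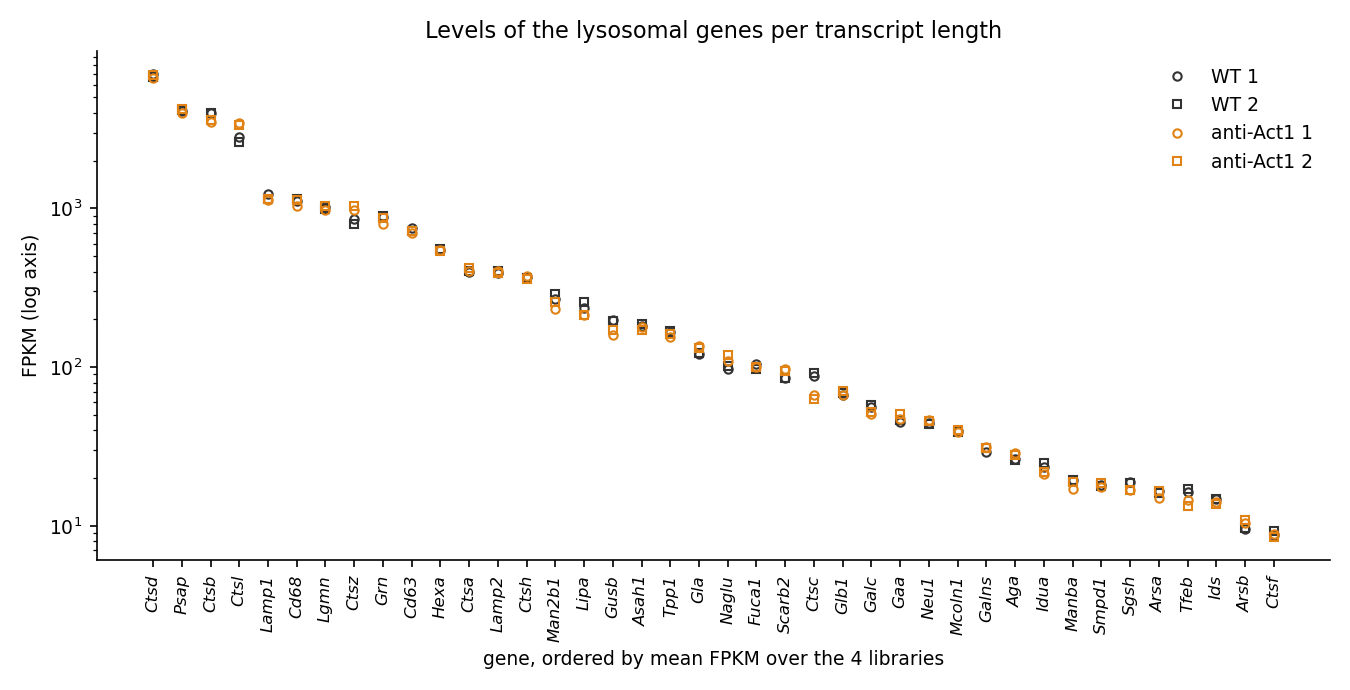
Deposited FPKM (log axis) of the 40 lysosomal genes in each of the 4 libraries, ordered by their mean. Levels ran from 6809 FPKM for Ctsd to 8.85 FPKM for Ctsf, and for most genes the 4 libraries lie close together on this scale.

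Between the groups, individual lysosomal genes moved in both directions and the median of the set lay near 0. With edgeR's quasi-likelihood test and Benjamini-Hochberg adjustment over 12494 genes, 11 of the 40 genes (27.5%) had an adjusted p under 0.05, and such genes are called here. The share called over all genes tested was 20.7%. There were 5 genes called higher in anti-Act1 (Ctsl, Ctsz, Naglu, Scarb2 and Gla), where 10.9% of all genes were, and 6 were called lower (Ctsc, Gusb, Tfeb, Lipa, Man2b1 and Ctsb), where 9.76% were. Without anti-Act1 replicate 1 or 2, 3 genes were called higher, and without WT replicate 2 or anti-Act1 replicate 1, 3 were called lower. The median log2 fold change over the 40 genes was 0.000085, beside -0.0046 over all genes tested, and 20 of the 40 were above 0. The CPM of the groups did not overlap for 24 of the 40 genes, while they did not overlap for 57.1% of all genes tested. Calls were more frequent among abundant genes in general: of the 337 genes tested at or above 391 CPM, the median of the 40 genes, 43.9% were called, and of the 20 lysosomal genes at or above it, 7 (35.0%) were called. With 2 libraries a group, the smallest p of an exact permutation test of 1 gene is 0.333, so single genes rest on the spread that edgeR estimates across genes. In these bulk samples, fewer cells of a type and less RNA per cell cannot be told apart.

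**Figure D3:**
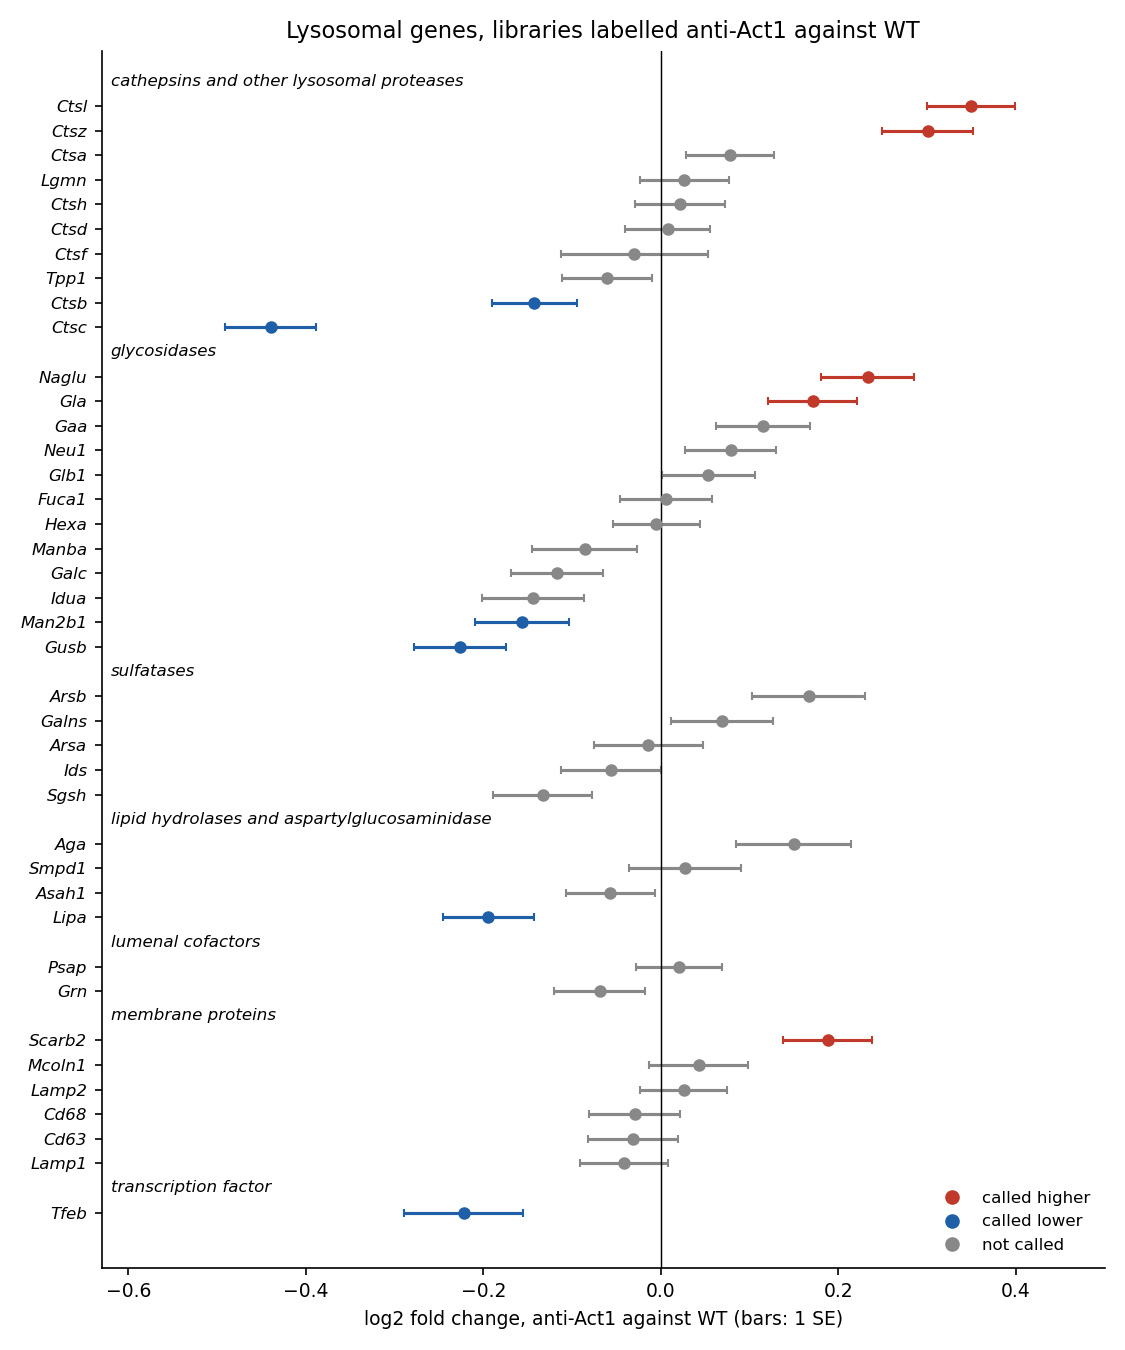
Log2 fold change of each of the 40 lysosomal genes, anti-Act1 against WT, with bars of 1 SE from the edgeR fit, grouped by role. Ctsc (-0.44) and Ctsl (0.35) lie at the 2 ends, and most of the gray points, the 29 genes not called, have bars near or across 0.

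The lysosomal proteases held both extremes. Of 10 tested, Ctsl and Ctsz were called higher and Ctsc and Ctsb lower (40% called, against 20.7% of all genes tested). Most of the 10 were abundant, and 43.9% of genes tested at or above 391 CPM were called. The median log2 fold change of the 10 was 0.014. Leaving out WT replicate 1 or anti-Act1 replicate 1 left 1 lower call. Ctsl, a cysteine endopeptidase, had 7219 and 6627 CPM in WT and 8891 and 8751 CPM in anti-Act1. Both anti-Act1 libraries were above both WT libraries by more than the gap within either group. Its log2 fold change was 0.35 (SE 0.049, edgeR BH-adjusted p = 2.37e-07). Ctsz, a cysteine carboxypeptidase, had 1224 and 1139 CPM in WT and 1401 and 1510 CPM in anti-Act1, again without overlap (log2 fold change 0.30, SE 0.051, edgeR BH-adjusted p = 1.07e-05). Both calls ended under 1 alternative, limma on log2(FPKM + 1) without a filter (adjusted p = 0.166 for Ctsl and 0.0934 for Ctsz), and over all 14 alternatives the adjusted p ran from 5.53e-16 to 0.166 for Ctsl and from 4.70e-09 to 0.0934 for Ctsz. In the GENCODE M21 annotation an antisense transcript, Gm47123, covers 26.8% of the exonic bases of Ctsl and a pseudogene on the same strand, Gm49230, covers 6.09%. Such overlaps were found for 14 of the 40 genes, 9 of them with another gene of the count table, so their values are less certain.

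Ctsc fell the most of the 40 genes. It encodes cathepsin C, a dipeptidyl peptidase that activates the serine proteases of immune cell granules. Ctsc had 351 and 367 CPM in WT and 270 and 259 CPM in anti-Act1. Each anti-Act1 library lay well below each WT library. Its log2 fold change was -0.44 (SE 0.051, edgeR BH-adjusted p = 2.55e-09), and Ctsc was the 1 lysosomal gene whose call held under all 14 alternatives, with adjusted p between 3.12e-17 and 0.0132.

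Ctsb, encoding cathepsin B, fell by a smaller step from a much higher level. It had 12399 and 12187 CPM in WT and 10855 and 11417 CPM in anti-Act1, without overlap but with a wider gap inside anti-Act1 than inside WT. The log2 fold change was -0.14 (SE 0.048, edgeR BH-adjusted p = 0.0265). The call ended without WT replicate 1 (-0.13, adjusted p = 0.0690), without anti-Act1 replicate 1 (-0.10, adjusted p = 0.208) and in the fit with the replicate number as a block (adjusted p = 0.176), and over all 14 alternatives the adjusted p ran from 0.00279 to 0.468. Exons of Ctsb share bases with Fdft1 on the opposite strand (12.8% of its exonic bases), a gene at 13.0 and 13.1 mean CPM, and the counting was not stated to use strand.

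The other 6 proteases were not called. Ctsd, the most abundant of them, had 13641 and 12908 CPM in WT and 12995 and 13690 CPM in anti-Act1. The libraries of the groups were interleaved. The annotated gene Gm49369, on the same strand, shares 34.4% of the exonic bases of Ctsd. Its log2 fold change was 0.0074, with a 95% interval from -0.090 to 0.10. Lgmn (0.026), Ctsh (0.021), the low Ctsf (-0.030) and Tpp1 (-0.061), which removes tripeptides from the ends of proteins, were also near 0. Ctsa, a carboxypeptidase that protects Neu1 and Glb1 in a complex, had a log2 fold change of 0.078 (edgeR BH-adjusted p = 0.303), with groups that did not overlap. Ctsa shares 10.5% of its exonic bases with the opposite-strand gene Pltp, at 999 and 1079 mean CPM, so its value is uncertain.

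Among the 12 glycosidases, which remove sugars from glycoproteins, glycolipids and glycosaminoglycans, 2 were called higher and 2 lower. This was 33.3% called, against 20.7% of all genes tested, and the median log2 fold change was 0.000085. Without anti-Act1 replicate 1, 1 was higher and 0 were lower, without anti-Act1 replicate 2, 0 were higher, and without WT replicate 2, 1 was lower. Naglu, which removes N-acetylglucosamine from heparan sulfate, had 233 and 242 CPM in WT and 266 and 293 CPM in anti-Act1. Both anti-Act1 libraries were higher, replicate 2 more so. The log2 fold change was 0.23 (SE 0.053, edgeR BH-adjusted p = 0.000741). Without anti-Act1 replicate 2 it was 0.16 and not called (adjusted p = 0.125; range over all 14 alternatives 0.000121 to 0.125).

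Gla had 362 and 367 CPM in WT and 412 and 409 CPM in anti-Act1, with little spread inside either group. The log2 fold change was 0.17 (SE 0.050, edgeR BH-adjusted p = 0.00998). The call ended without anti-Act1 replicate 1 (adjusted p = 0.0975) or replicate 2 (adjusted p = 0.0782) at nearly the same fold change (0.17 and 0.18), and the range over its 13 alternatives was 0.00113 to 0.0975. Gla lies on the X chromosome, and of the 380 X-linked genes tested 8.16% were called higher and 12.9% lower, with a median log2 fold change of -0.038; the part of sex in its difference was not tested.

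Gusb, encoding β-glucuronidase, had 430 and 422 CPM in WT and 349 and 379 CPM in anti-Act1. Both anti-Act1 libraries were lower, replicate 1 more so. The log2 fold change was -0.23 (SE 0.052, edgeR BH-adjusted p = 0.000797), and without anti-Act1 replicate 1 it was -0.16 and not called (adjusted p = 0.113; range over all 14 alternatives 0.000126 to 0.113). Man2b1, an α-mannosidase, had 991 and 1053 CPM in WT and 865 and 968 CPM in anti-Act1. The groups were separated by only a narrow gap, between WT replicate 1 and anti-Act1 replicate 2. Its log2 fold change was -0.16 (SE 0.053, edgeR BH-adjusted p = 0.0273). The call ended without WT replicate 2 (-0.11, adjusted p = 0.182), without anti-Act1 replicate 1 (-0.074, adjusted p = 0.553) and with the replicate block (adjusted p = 0.0566), over a range of 0.00333 to 0.553 under 14 alternatives.

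The other 8 glycosidases were not called. Idua, which acts on heparan and dermatan sulfate, had 71.3 and 75.05 CPM in WT and 64.9 and 67.6 CPM in anti-Act1 (log2 fold change -0.14, SE 0.058, edgeR BH-adjusted p = 0.0693). Without WT replicate 1 it was called (-0.18, adjusted p = 0.0314; range over all 14 alternatives 0.0314 to 0.439). Galc, which degrades galactosylceramide, had -0.12 (edgeR BH-adjusted p = 0.106), and Gaa, which degrades glycogen, had 0.12 (edgeR BH-adjusted p = 0.123). For Neu1 (0.079), Glb1 (0.053), Fuca1 (0.0054), Hexa (-0.0052) and Manba (-0.086) the 95% interval of the log2 fold change included 0. Hexa, a subunit of β-hexosaminidase, stood out for its narrow range, with 957 and 970 CPM in WT and 961 and 959 CPM in anti-Act1, and its interval ran from -0.10 to 0.094.

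**Figure D4:**
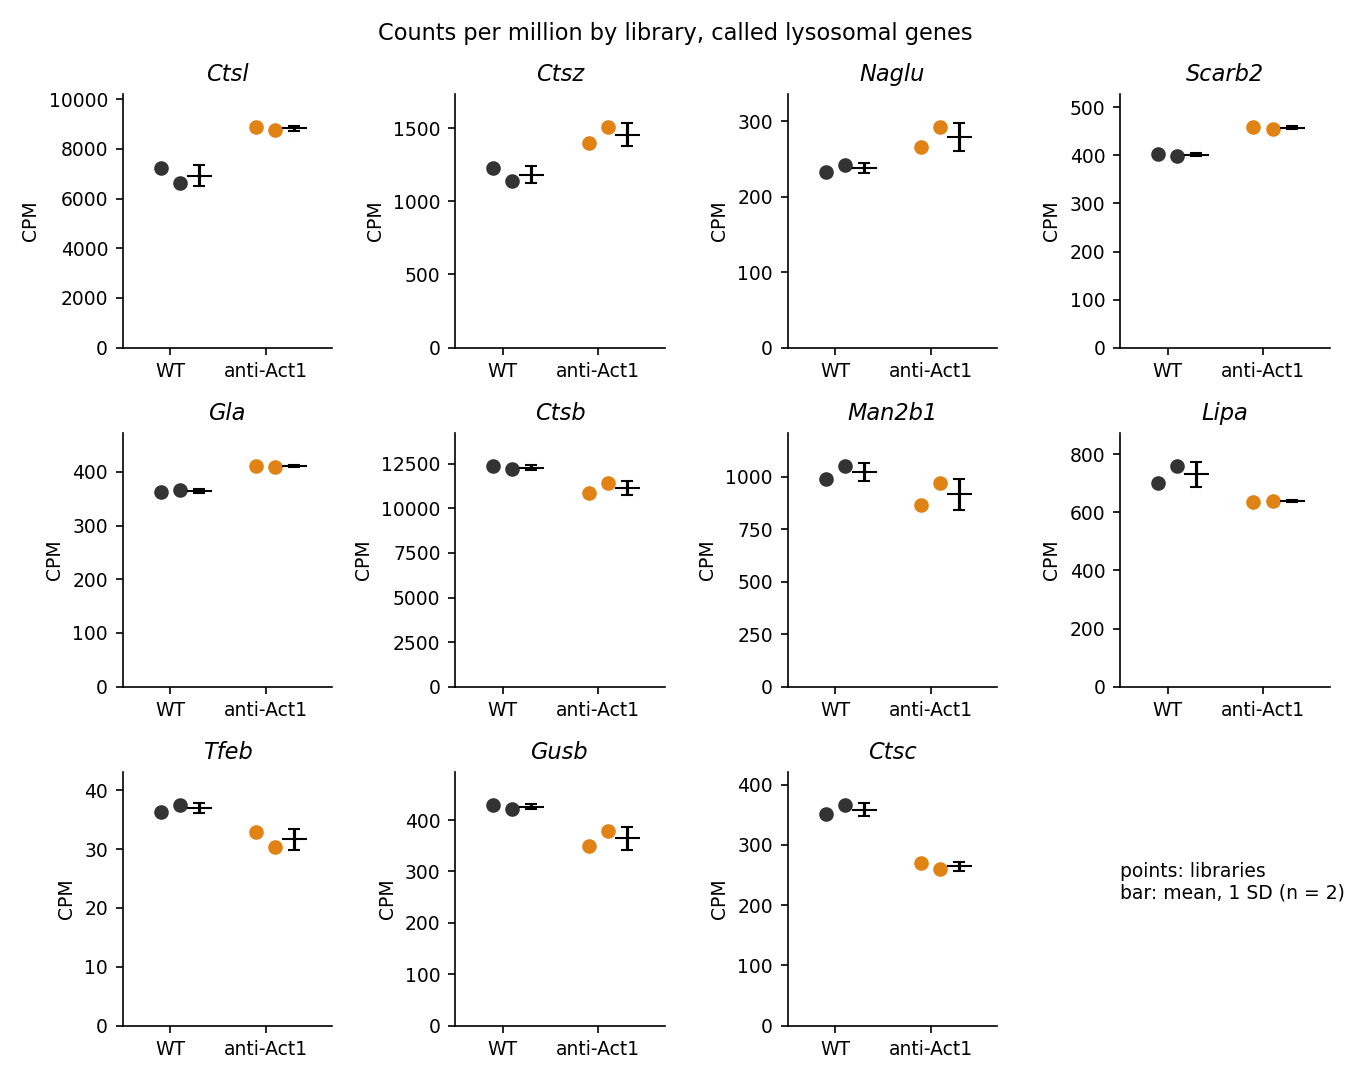
CPM of the 11 called lysosomal genes in each library (points), with the mean and 1 SD of each group beside them (n = 2), on axes that start at 0. The groups are separated for all 11 genes, which is no added support, since the calls came from these same libraries. Man2b1 shows a narrow gap.

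Of the 5 sulfatases 0 were called by edgeR, where 20.7% of all genes tested were, and the median log2 fold change was -0.014. Sgsh and Arsb had an unadjusted p under 0.05. DESeq2 gave the same call for each of the 40 genes. Sgsh, which removes sulfate from heparan sulfate, had 80.8 and 79.7 CPM in WT and 72.9 and 73.4 CPM in anti-Act1, without overlap (log2 fold change -0.13, edgeR BH-adjusted p = 0.0849), and shares 21.6% of its exonic bases with Card14 on the opposite strand (1.78 and 1.53 mean CPM). Arsb, which acts on dermatan and chondroitin sulfate, had 37.9 and 38.3 CPM in WT and 41.6 and 43.9 CPM in anti-Act1 (log2 fold change 0.17, edgeR BH-adjusted p = 0.0559), and the opposite-strand transcript Gm26527 shares 32.3% of its exonic bases. Neither gene was called, and their log2 fold changes lay on opposite sides of 0. With library totals only in place of TMM factors, Sgsh was called lower (edgeR BH-adjusted p = 0.0390). Galns (0.069), Arsa (-0.014) and the X-linked Ids (-0.057; 73.0 and 73.0 CPM in WT, 70.9 and 69.5 CPM in anti-Act1) were closer to 0.

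Of 3 lipid hydrolases and aspartylglucosaminidase, Lipa alone was called (25%, against 20.7% of all genes tested). The median log2 fold change was -0.015. Lipa encodes acid lipase, which frees cholesterol and fatty acids from the cholesteryl esters and triglycerides of lipoproteins. It had 700 and 760 CPM in WT and 636 and 640 CPM in anti-Act1, and the 2 anti-Act1 libraries lay close together below both WT libraries. The log2 fold change was -0.19 (SE 0.051, edgeR BH-adjusted p = 0.00375), and without WT replicate 2 it was -0.13 and not called (adjusted p = 0.0961; range over all 14 alternatives 0.000110 to 0.0961). Aga, which cuts the link between asparagine and glycans, had 34.2 and 33.5 CPM in WT and 37.6 and 37.4 CPM in anti-Act1 (log2 fold change 0.15, edgeR BH-adjusted p = 0.10). The sphingomyelinase Smpd1 (0.027) and the ceramidase Asah1 (-0.057) were not called.

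The lumenal cofactors were not called either. Psap had 10723 and 10817 CPM in WT and 10511 and 11338 CPM in anti-Act1, so that WT lay inside the range of anti-Act1 (log2 fold change 0.021, 95% interval -0.077 to 0.12). Grn, encoding progranulin, a secreted and lysosomal protein, had 2042 and 2069 CPM in WT and 1860 and 2058 CPM in anti-Act1, where replicate 1 alone was lower (log2 fold change -0.069, edgeR BH-adjusted p = 0.382).

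Of the 6 membrane proteins, with a median log2 fold change of -0.0021, Scarb2 alone was called (16.7%, against 20.7% of all genes tested). Scarb2 encodes LIMP-2, the receptor that carries glucocerebrosidase to the lysosome. It had 404 and 400 CPM in WT and 460 and 455 CPM in anti-Act1, with a gap between groups far wider than that inside them. The log2 fold change was 0.19 (SE 0.050, edgeR BH-adjusted p = 0.00423), and without anti-Act1 replicate 1 it was 0.18 and not called (adjusted p = 0.0607; range over all 14 alternatives 0.000211 to 0.0607).

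The other 5 membrane proteins were not called. Lamp1 had 2721 and 2538 CPM in WT and 2516 and 2594 CPM in anti-Act1 (log2 fold change -0.041, 95% interval -0.14 to 0.059). The X-linked Lamp2, a receptor of chaperone-mediated autophagy, had 991 and 1003 CPM in WT and 1024 and 1006 CPM in anti-Act1 (0.025, 95% interval -0.074 to 0.12). Cd68 (-0.030), the tetraspanin Cd63 (-0.032) and Mcoln1 (0.043), a calcium channel of the lysosomal membrane, had overlapping groups.

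Tfeb was lower in anti-Act1. It had 36.3 and 37.5 CPM in WT and 32.9 and 30.4 CPM in anti-Act1, without overlap. Its log2 fold change was -0.22 (SE 0.067, edgeR BH-adjusted p = 0.0124). The call ended without WT replicate 2 (-0.20, adjusted p = 0.0728) and without anti-Act1 replicate 2 (-0.17, adjusted p = 0.244), over a range of 0.0105 to 0.244 under 14 alternatives. Read by promoter letters, 3 of the 5 genes called higher held a CACGTG core (Ctsl, Naglu and Gla), as did 0 of the 5 genes called lower that had a window and 10 of the 25 genes not called. The longer TCACGTG was held by 2 of the 5 genes called higher, 0 of the 5 called lower and 9 of the 25 not called. The full TCACGTGA was held by 1, 0 and 3 of them, so the contrast of the core was not seen between higher and uncalled genes with longer letters. Shares over all called genes of the table were not counted. These shares were not compared by a test, and the location of the Tfeb protein was not measured.

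Among the 29 genes not called, 13 (44.8%) had groups that did not overlap, against 46% of the 9908 genes not called over the whole table, and 6 (20.7%) had an unadjusted p under 0.05 (Gaa, Idua, Galc, Sgsh, Arsb and Aga), against 13.4%. Their 95% intervals reached from -0.26 to 0.29 at the widest on the log2 scale. The smallest called difference was 0.14 in size, for Ctsb. The SE of the 40 genes ran from 0.048 to 0.083 with a median of 0.051. Of the 12 genes under 100 mean CPM 1 was called (Tfeb), and of the 28 at or above it 10 were. Shares over all genes were not counted at this cut. Over all genes tested 20.7% were called, and 43.9% of those at or above 391 CPM.

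Genes of the surrounding pathway were also called in both directions, as were genes in general (10.9% higher and 9.76% lower). Of 147 other genes of lysosomal function in 7 lists, 142 were tested, and 20 were called higher and 16 lower. This was 25.4% called, against 20.7% of all genes tested, with a median log2 fold change of 0.0018. Ctsg, Atp6v0e2, Atp6v1b1, Atp6v1c2 and Rragb did not pass the filter. Higher calls numbered 13 without WT replicate 2 and 12 without anti-Act1 replicate 1. Of the 36 called genes, 12 held their call under all 14 alternatives.

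The largest differences among other enzymes went both ways. Of 8 other cathepsins and cystatins tested, 3 were called higher and 0 lower (37.5% called, against 20.7% of all genes tested). These were Ctsk, a collagen-degrading cathepsin (log2 fold change 0.42), and the cathepsin inhibitors Cstb (0.30) and Cst3 (0.21). The cathepsin Ctss, which is abundant in macrophages, had 0.11 and was not called (edgeR BH-adjusted p = 0.0933). Of 36 other hydrolases and cofactors, 6 were called in each direction (33.3% called). The tartrate-resistant phosphatase Acp5 (0.43), the acid amidase Naaa (0.33) and the hyaluronidase Hyal2 (0.28) led the higher ones. Plbd1 (-0.51), the phospholipase Pla2g15 (-0.37) and the palmitoyl thioesterase Ppt1 (-0.31) led the lower ones. Acp5 had 150 and 139 CPM in WT and 193 and 197 CPM in anti-Act1, and Ctsk had 243 and 230 CPM in WT and 320 and 314 CPM in anti-Act1. Both are also high in osteoclasts, and a list of 6 osteoclast markers summed to 64.3 and 74.2 CPM in WT and 74.2 and 78.2 CPM in anti-Act1, with Calcr at 0 counts in every library, Mmp9 higher (0.96) and Dcstamp lower (-1.26). Their part in the differences was not tested. Among the enzymes and inhibitors of largest difference named above, leaving out 1 library ended the call of Cst3 alone (0.13 without WT replicate 2). Its adjusted p over all alternatives ran from 8.62e-06 to 0.308. Of the other called hydrolases, Hgsnat, Hyal1, Creg1, Plbd2 and Ifi30 did not hold their calls under all 14 alternatives.

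Subunits of the proton pump were called in both directions, as were genes in general. Of 19 V-ATPase genes tested, 4 were called higher and 2 lower (31.6% called, against 20.7% of all genes tested). Atp6v0a1, a subunit of the membrane sector, had 157 and 160 CPM in WT and 106 and 110 CPM in anti-Act1, a log2 fold change of -0.55 (SE 0.053, edgeR BH-adjusted p = 1.12e-11), and Atp6v0d2 had -0.23. Atp6v0e (0.34), Atp6v1h (0.24), Atp6v0c (0.17) and Atp6v1e1 (0.16) were higher. Atp6v1h lost its call without anti-Act1 replicate 1 (0.19, adjusted p = 0.0796), and Atp6v0c lost it without WT replicate 2 (0.10, adjusted p = 0.241) or anti-Act1 replicate 2 (0.13, adjusted p = 0.232). The ranges over alternatives were 0.000238 to 0.0811 for Atp6v1h and 0.000423 to 0.249 for Atp6v0c. Atp6v1e1 was called under 7 of its 14 alternatives and lost its call without WT replicate 2 (adjusted p = 0.154), anti-Act1 replicate 1 (0.125) or anti-Act1 replicate 2 (0.153).

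Of 28 other membrane proteins and transporters, 2 were called higher and 4 lower (21.4% called, against 20.7% of all genes tested). Mcoln3, a cation channel related to Mcoln1, had 25.04 and 26.3 CPM in WT and 17.2 and 16.4 CPM in anti-Act1, a log2 fold change of -0.61 (SE 0.078, edgeR BH-adjusted p = 2.31e-08). Within the mucolipin channels, Mcoln3 was thus lower, Mcoln1 was not called and Mcoln2 (0.16) was called higher, the last of these under only 4 of 14 alternatives (adjusted p = 0.268, 0.148 and 0.284 without WT replicate 2, anti-Act1 replicate 1 and anti-Act1 replicate 2; range 0.0230 to 0.284). The cystine transporter Ctns (-0.22), the channel Tpcn1 (-0.19), Slc29a3 (-0.15) and Tmem192 (0.18) each lost their calls when 1 of several libraries was left out. Ctns was not called without WT replicate 2 (adjusted p = 0.147), anti-Act1 replicate 1 (0.102) or anti-Act1 replicate 2 (0.0610). Slc29a3 was not called without the same libraries (adjusted p = 0.362, 0.189 and 0.242). Tmem192 was not called without WT replicate 2 (adjusted p = 0.315) or anti-Act1 replicate 1 (0.479). Tpcn1 was not called without WT replicate 1 (adjusted p = 0.138) or anti-Act1 replicate 1 (0.226).

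Of 12 genes of mannose 6-phosphate tagging and sorting, 2 were called in each direction (33.3% called, against 20.7% of all genes tested). Sort1, encoding the sorting receptor sortilin, had 103 and 106 CPM in WT and 82.8 and 83.9 CPM in anti-Act1 (log2 fold change -0.32, edgeR BH-adjusted p = 7.55e-06), and its call held under all 14 alternatives. M6pr, the cation-dependent mannose 6-phosphate receptor, had 481 and 476 CPM in WT and 536 and 530 CPM in anti-Act1 (0.16, edgeR BH-adjusted p = 0.0190), but was not called without WT replicate 2 (adjusted p = 0.0632), anti-Act1 replicate 1 (0.144) or anti-Act1 replicate 2 (0.106), over a range of 0.00282 to 0.144. Vps29 (0.17) and Gga3 (-0.18) lost their calls without anti-Act1 replicate 1 (0.12, adjusted p = 0.372, and -0.12, adjusted p = 0.447, the highest over their alternatives) and without WT replicate 2 (adjusted p = 0.0643 and 0.104).

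Of 17 tested factors related to Tfeb and parts of the mTORC1 scaffold, Rptor was called higher (0.17) and Tfec (-0.26) and Zkscan3 (-0.26) lower. This was 17.6% called, against 20.7% of all genes tested. Tfec belongs to the family of Tfeb, and Zkscan3 is a repressor of lysosomal and autophagy genes. Both lost their calls without anti-Act1 replicate 2 (-0.22, adjusted p = 0.106, and -0.20, adjusted p = 0.108, the highest over their alternatives), and Rptor lost its call without WT replicate 2 (adjusted p = 0.127), anti-Act1 replicate 1 (0.0719) or anti-Act1 replicate 2 (0.230, the highest over its alternatives). Of 22 autophagy genes, 2 were called (9.09%, against 20.7% of all genes tested). These were Atg9b (0.84, at 6.72 and 4.64 CPM in WT and 10.1 and 10.2 CPM in anti-Act1) and Sqstm1 (0.24), the gene of the cargo receptor p62. Sqstm1 had 534 and 537 CPM in WT and 619 and 642 CPM in anti-Act1 (edgeR BH-adjusted p = 0.000318), and its call held under all 14 alternatives.

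**Figure D5:**
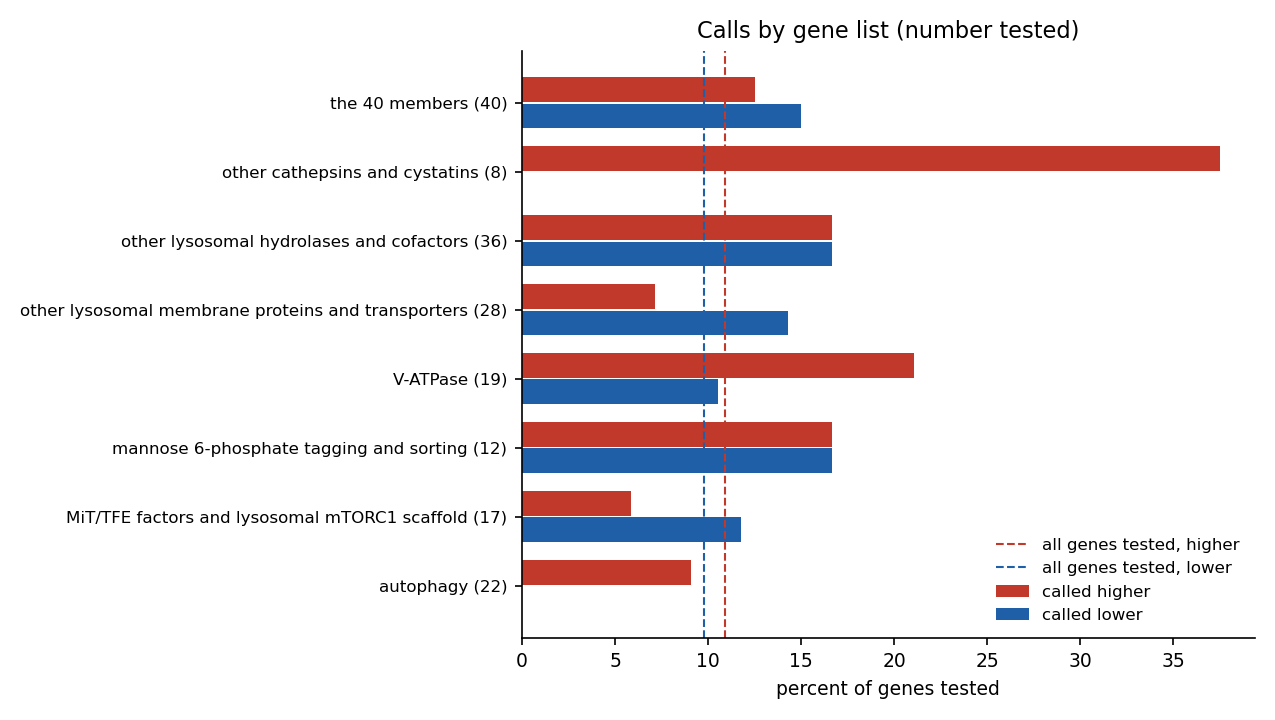
Percent of the genes tested in each list that were called higher or lower in anti-Act1, with the number tested in brackets and dashed lines at the shares over all genes tested (10.9% higher and 9.76% lower). Calls in both directions are present in every list except other cathepsins and cystatins and autophagy, where the called genes (3 of 8 and 2 of 22) were all higher.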

How the data were processed

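The series held 4 libraries, 2 labelled anti-Act1 and 2 labelled WT, and depth was 55435063 to 75062945 counts. The authors removed low-quality reads, aligned read pairs with TopHat and deposited whole-number counts per gene without normalization, and deposited FPKM values scaled to gene length and library total. The submitters' processing notes name Bowtie 0.12.2, HTSeq 0.6.1 and the builds mm8 and mm10, with no role for either build. Coordinates are therefore given only for RefSeq promoter windows on GRCm38.p6. Strand use in counting was not given in the sources used here, and exon overlaps were looked up in GENCODE M21.

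Counts were tested with edgeR 4.0.16 (R 4.3.3) after TMM normalization and filterByExpr, by its quasi-likelihood F test (two-sided) with group as the only term. Benjamini-Hochberg adjustment ran over the 12494 genes tested with a threshold of 0.05. CPM are counts scaled to TMM library sizes. FPKM were used only for levels between genes and in limma alternatives.

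The alternatives were DESeq2 1.42.0, DESeq2 size factors in edgeR, library totals only, a filter of 10 counts or more in every library, no filter, the replicate block, limma 3.58.1 on log2(FPKM + 1) and log2(FPKM + 0.1) (FPKM of at least 1 in 2 libraries) and without a filter, X- and Y-linked genes left out, and each library left out in turn. Scripts were tested on simulated data.

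The 40 genes and all lists were chosen with earlier results of these data known. The genes named are the 40, Traf3ip2, the Y-linked genes, and from each pathway list the 3 largest differences among called genes in each direction, with any gene of a list where a count is 5 or fewer. Ctss was named after its values were seen. Columns of other samples numbered 0. Not every macrophage marker of the list is reported here.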

Additional observations from a re-analysis of the deposited data

How the results depend on the processing

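Under 14 alternatives, 0 of the 11 called lysosomal genes changed sign and 1, Ctsc, was called under all of them. DESeq2, DESeq2 size factors, no filter and the minimum of 10 counts changed no call among the 40 genes. Among the other pathway genes, DESeq2 gave 20 higher and 14 lower calls (20 and 16 in the report). The calls of Slc29a3, Tmem192, Mcoln2 and Gga3 ended under DESeq2. When limma ran on unfiltered log2(FPKM + 1) values, counts of called genes fell, over all genes to 583 higher and 509 lower (1366 and 1220 in the report), over the 40 genes to 0 higher and 2 lower (5 and 6), among proteases to 0 higher and 1 lower, among glycosidases to 0 higher and 1 lower, to 0 for Lipa, Scarb2 and Tfeb, and over the other pathway genes to 5 higher and 8 lower (20 and 16). With a filter, limma on log2(FPKM + 1) and log2(FPKM + 0.1) each gave 1 protease and 1 glycosidase lower and 12 other pathway genes higher, and the latter gave 910 genes higher over all. With library totals only, 4 glycosidases (Gusb, Man2b1, Idua and Galc) and 1 sulfatase (Sgsh) were called lower. Without X- and Y-linked genes, 1 glycosidase was higher because Gla was left out. The cause of the other changes was not tested.

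Leaving out 1 library gave 930 to 1335 genes higher and 741 to 1208 lower over all, the lowest without anti-Act1 replicate 2 for lower calls. Over the 40 genes it gave 3 to 5 higher and 3 to 6 lower, with 1 to 2 proteases lower, 0 to 2 glycosidases higher and 0 to 3 lower, 0 to 1 for each of Lipa, Scarb2 and Tfeb, and 12 to 26 other pathway genes higher. The median of sulfatases ran from -0.042 to 0.064 and that of membrane proteins from -0.027 to 0.027. The median of the lipid group was -0.041 with library totals and with each limma setting, and the median of membrane proteins was -0.028 with these 4 settings and -0.031 without X- and Y-linked genes.

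Values that changed sign all belonged to genes that were not called. With library totals only these were Ctsd (-0.018), Ctsh (-0.0038), Fuca1 (-0.020) and Psap (-0.0052), and with the 3 limma settings Ctsd (-0.018), Ctsh (-0.0042 or -0.0043), Fuca1 (-0.019), Psap (-0.0059) and Lamp2 (-1.0e-05). With 1 library left out, log2 fold changes ran from -0.032 to 0.047 for Ctsd, -0.069 to 0.0100 for Ctsf, -0.0029 to 0.049 for Ctsh, -0.026 to 0.080 for Lgmn, -0.016 to 0.0041 for Hexa, -0.17 to 0.0010 for Manba, -0.048 to 0.059 for Fuca1, -0.092 to 0.066 for Arsa, -0.031 to 0.088 for Smpd1, -0.034 to 0.077 for Psap, -0.14 to 0.0051 for Grn, -0.091 to 0.0088 for Lamp1, -0.066 to 0.0046 for Cd63 and -0.097 to 0.039 for Cd68.

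The replicate numbers are shared between the groups, but the deviations of same-numbered libraries from their group means correlated at r = -0.030 over 12494 genes, so the numbers were not taken to pair the libraries. With the replicate block, 1293 genes were higher and 1113 lower over all, 5 and 4 of the 40 genes were called, and proteases and glycosidases each had 1 lower call. The block changed no other call among the 40 genes. The lowest count of the 40 genes in any library was 929, for Ctsf.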
